A study of Caenorhabditis elegans with 8 samples.

Results

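The cyclin and cell cycle kinase mRNAs described here were the transcripts of 10 genes of the nematode Caenorhabditis elegans, chosen by gene ID from the 12240 gene IDs that had at least 1 read in the series. They were the B-type cyclins cyb-1, cyb-2.1, cyb-2.2 and cyb-3, the E-type cyclin cye-1, the kinases cdk-1, wee-1.3 and plk-1, and the aurora kinases air-1 and air-2. No measured value entered this choice, but it was made with earlier results of the same libraries known. The count table gives IDs only, and the symbols are those paired with the 10 IDs in the definition of the group.

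The libraries were made by iCLIP, in which ultraviolet light joins a protein to the RNA it touches, and that RNA is then purified with the protein and sequenced. The protein was FOG-3, which is required for germ cells to become sperm. All worms, controls included, carried a FLAG-tagged FOG-3 integrated at single copy and were collected from plates as L4 larvae, the last larval stage. The 4 FOG-3 libraries were purified with the FLAG antibody, and the 4 control libraries came from the same worms and protocol with that antibody left out. Both groups are called biological replicates in the series' design. The labels do not state the sex of the worms or any further allele. The libraries are called by the 4-letter tags of their columns, since no label links a tag to a numbered sample. Values of the FOG-3 group are listed in the order CGGA (80529 gene-assigned reads), GGCA (97054), GGTT (76790) and TGGC (186739), and values of controls in the order AATA (30631), CCGG (18676), TTAA (14964) and TTGT (74892).

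Cyclin-dependent kinases drive the cell cycle when a cyclin binds them. CYE-1 acts with CDK-2 at entry into DNA replication and in keeping worm germ cells in the mitotic cycle, and the B-type cyclins act with CDK-1 at entry into mitosis and meiotic division. WEE-1.3 is a Myt1-type kinase that holds CDK-1 inactive, and mutations of it are known to disturb spermatogenesis. PLK-1 is a polo kinase of mitotic entry and spindle assembly, AIR-1 is the aurora A kinase of centrosomes, and AIR-2 is the aurora B kinase of chromosomes and the midbody.

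FOG-3 libraries were the deeper ones, and a single read was worth from 5.36 to 66.8 CPM, which are reads scaled to the library total. TMM scaling, which sets libraries on the bulk of shared genes, gave factors of 1.47 to 1.66 in FOG-3 libraries and 0.593 to 0.716 in controls. Folds with TMM are therefore smaller than folds from library totals, and both are given. With TMM the median log2 difference over all 886 tested gene IDs was 0.74, and with totals alone it was 1.94. In the FOG-3 libraries, counts follow the amount of an mRNA as well as its contact with FOG-3. Whether more cells carrying it or more RNA per cell gave those reads cannot be told apart. This limit applies at least to comparing 1 mRNA with another. Both groups came from the same worms, but the controls lacked the antibody. RNA kept by the antibody without touching FOG-3 therefore cannot be told apart from RNA in contact with FOG-3, and this was not tested. Markers of cell types were not analysed here, since no table used pairs the IDs with symbols.

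As a group, the mRNAs of the 10 genes were recovered with FOG-3 and were almost missing from the controls. Together they had 148, 202, 155 and 340 reads in the FOG-3 libraries, and 4, 1, 0 and 3 reads in the controls. Every FOG-3 library was thus above every control, and the 8 control reads stood against 845 FOG-3 reads. The shares of gene-assigned reads were 0.194% ± 0.013 (SD, n = 4) with the antibody and 0.00560% ± 0.00546 without it. The lowest FOG-3 share was 0.182% in TGGC (exact Clopper-Pearson 95% interval 0.163% to 0.202%), and the highest control share was 0.0131% in AATA (0.00356% to 0.0334%). These intervals cover counting error only.

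**Figure D1:**
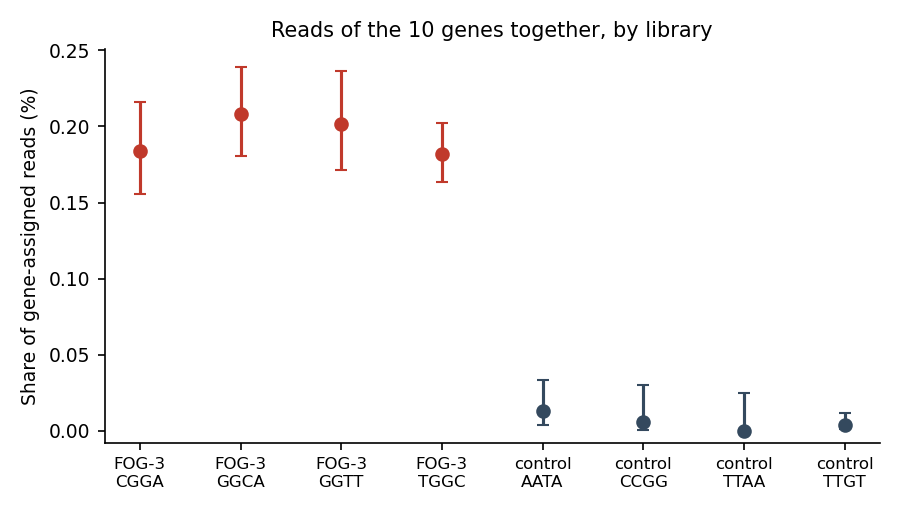
Share of gene-assigned reads, in percent, that fell on the 10 genes together in each library, with exact 95% Clopper-Pearson intervals as bars. The 4 FOG-3 libraries lie between 0.182% and 0.208%, and the 4 controls lie between 0 and 0.0131%.

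The FOG-3 library GGTT and the control TTGT had nearly equal totals, 76790 and 74892 gene-assigned reads, and held 155 and 3 reads of the 10 genes. They differed in make-up, however, and a single read was worth 7.84 CPM in GGTT and 18.6 CPM in TTGT with TMM. The pooled share was 33.3 times higher in FOG-3 libraries from library totals (95% counting interval 16.8 to 77.4) and 14.4 times higher with TMM (7.29 to 33.6). Leaving the 10 most abundant gene IDs of the table out of the totals gave 14.2 (7.19 to 33.1). Had the controls held the pooled FOG-3 level, 266.6 reads would have been expected in them by library totals and 115.5 with TMM, where 8 were counted.

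**Figure D2:**
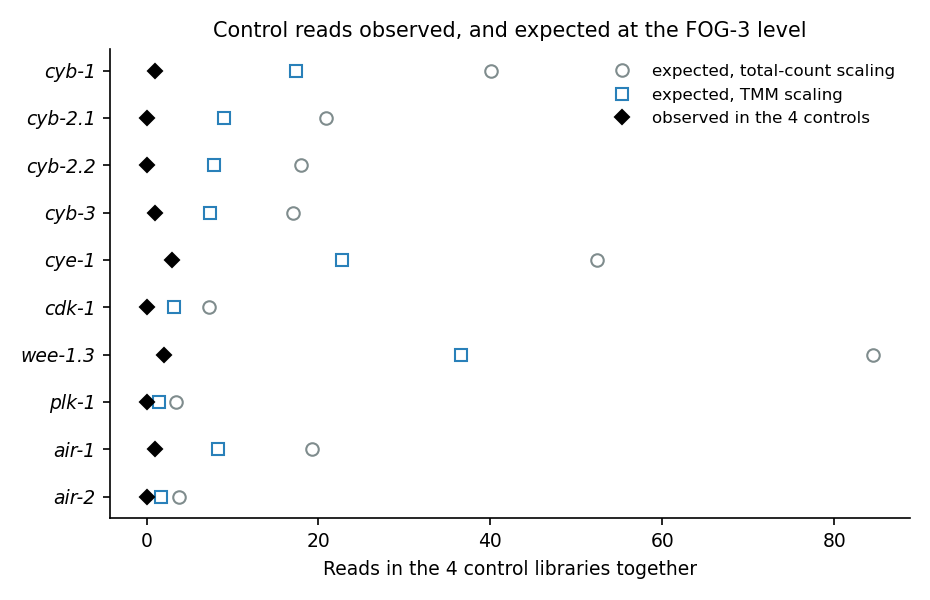
Reads of each gene counted in the 4 controls together (filled diamonds), beside the reads expected there at the pooled FOG-3 level by library totals (open circles) and with TMM scaling (open squares). For wee-1.3 the 2 counted reads stand against 84.5 and 36.6 expected, while for plk-1 and air-2 fewer than 4 were expected under either scaling.

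Reads were few for most of the genes, which set how each could be tested. The filter on low counts, which asks for about 10 reads at the median library size in at least 4 libraries, kept 886 gene IDs and 3 of the 10: cyb-1, cye-1 and wee-1.3. All 3 rose in FOG-3 (edgeR quasi-likelihood test, Benjamini-Hochberg adjusted p under 0.05), where 45.3% of all tested gene IDs were called higher and 27.5% lower. A gene ID nearly absent from controls could pass this filter only by being present in all 4 FOG-3 libraries, so 3 of 3 is no support for the group as a whole.

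Without the filter all 10 could be fitted, over 12240 gene IDs. In that fit 7 rose, namely cyb-1, cyb-2.1, cyb-2.2, cyb-3, cye-1, wee-1.3 and air-1, and none (0) fell, while cdk-1, plk-1 and air-2 did not pass. The background there was 7.75% of all gene IDs, most of them too rare to be called, and 22.1% of the 4288 gene IDs with at least 11 reads, the number held by the rarest of the 10. With a minimum of 5 reads in total, 6379 gene IDs were tested and 8 of the 10 rose, cdk-1 now included, beside 21.7% of all tested and 32.3% of those with at least 11 reads. At an unadjusted p under 0.05 the counts were 8 of 10 without the filter and 9 of 10 with the minimum of 5 reads. The share of all gene IDs passing at that threshold is not given, so these counts cannot be set against a background.

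By level, 9 of the 10 genes lay higher in every FOG-3 library than in every control, with plk-1 as the exception, beside 34% of gene IDs with at least 11 reads. For a gene without control reads this asks only for a read in every FOG-3 library. The 4288 gene IDs had fewer FOG-3 reads, with a median of 28 against 59 for the 10, and more reads make this easier to meet. Of the 10, 5 had no (0) control read, beside 23.6% of those gene IDs. The median pooled ratio from library totals was 11.99 over the 10 and 2.84 over the 4288, with genes lacking control reads set to 3 reads over the control group. With TMM these medians were 5.19 and 1.23.

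**Figure D3:**
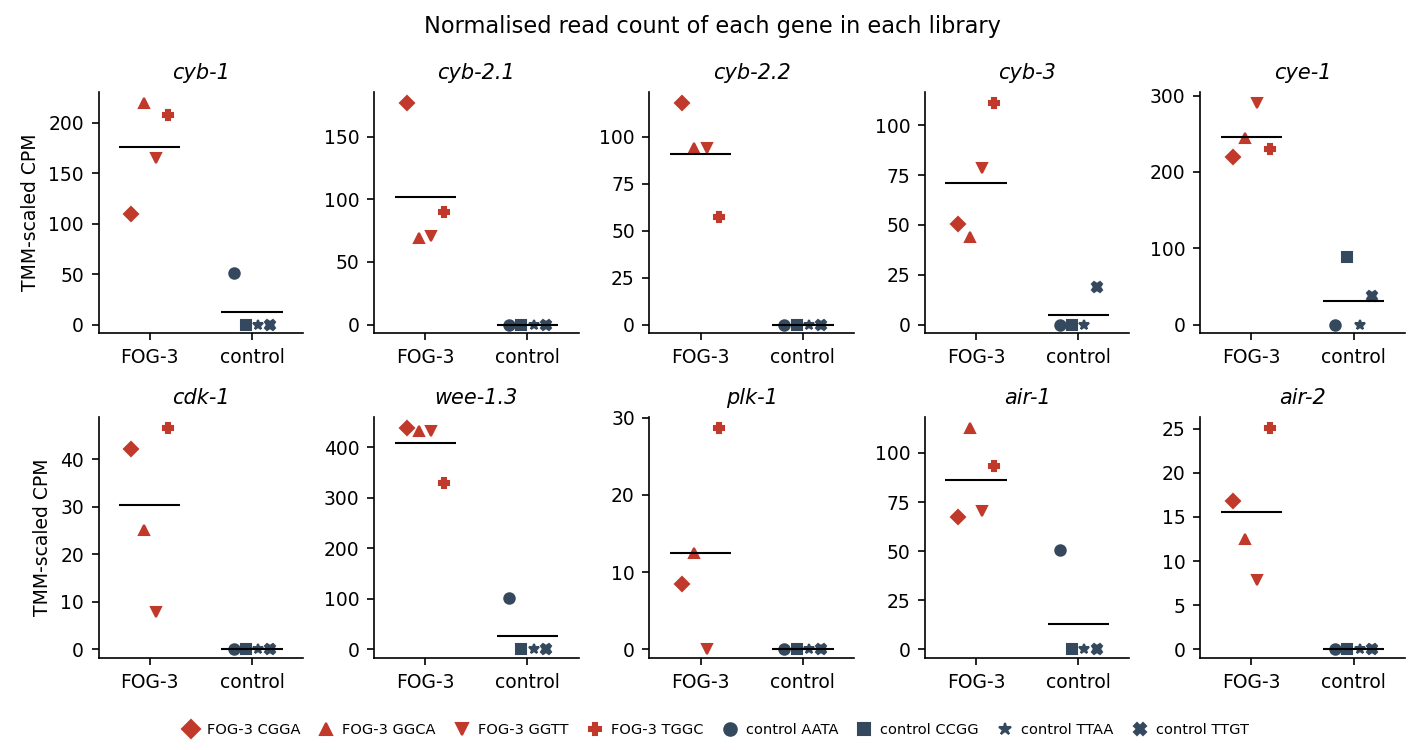
TMM-scaled CPM of each of the 10 genes in each library, on a linear axis of its own for each gene, with symbols for libraries and a line at the group mean. Every FOG-3 library lies above every control except for plk-1, where library GGTT is at 0 like the controls.

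Among the cyclins, cyb-1 (WBGene00000865) had the most reads of the B type. It had 13, 35, 21 and 58 reads in the FOG-3 libraries, and 1 read in all controls, in AATA. The groups did not overlap, although the single read of AATA amounts to 50.7 TMM-scaled CPM and CGGA, the lowest FOG-3 library, stood at 109.5. The means were 175.4 ± 49.8 CPM (SD, n = 4) and 12.7 ± 25.35 CPM. Its fitted log2 fold change came to 3.93 ± 0.86 (SE, edgeR adjusted p = 1.7e-05, higher in 4 of 4 libraries), with adjusted p from 1.8e-14 to 0.0029 over the alternatives. The pooled ratio was 17.4 (95% counting interval 3.06 to 691) with TMM and 40.1 (7.06 to 1595) from totals. Without AATA no control read remained, and the pooled TMM level was 5.49-fold higher over a floor of 3 reads (lower 95% counting limit 4.40).

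The paralogs cyb-2.1 (WBGene00000866) and cyb-2.2 (WBGene00000867) were recovered from FOG-3 libraries alone. In the FOG-3 libraries, cyb-2.1 had 21, 11, 9 and 25 reads, and cyb-2.2 had 14, 15, 12 and 16. Neither had a read in any control. CGGA was the highest FOG-3 library for each of them on the TMM scale, the opposite of its place for cyb-1. The means were 101.5 ± 51.2 CPM (SD, n = 4) for cyb-2.1 and 90.9 ± 25.02 CPM for cyb-2.2. With 3 reads over the control group as the floor, cyb-2.1 was at least 3.01-fold higher with TMM and at least 6.94-fold from totals. For cyb-2.2 these bounds were 2.60-fold (lower limit 2.04) and 5.99-fold (4.72). Both rose in the fit without a filter (edgeR adjusted p = 0.00014 and 0.00042), where the fitted fold of a gene without control reads depends on the prior count and is not given. With the minimum of 5 reads the adjusted p were 5.6e-05 and 0.00015. Their bounds rested on the deepest control: without TTGT they were 2.01-fold and 1.74-fold with TMM (lower limits 1.59 and 1.37).

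The ratio of cyb-2.1 to cyb-2.2 reads was 1.5, 0.733, 0.750 and 1.56 in the same order of libraries. The members of this pair are close in sequence, and no source used here says how reads matching more than 1 place were handled, so the split between them is uncertain. Their counts were not identical in any FOG-3 library.

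The last B-type cyclin, cyb-3 (WBGene00000868), which in worm embryos is needed for chromosome segregation, had 6, 7, 10 and 31 reads in the FOG-3 libraries, and 1 in the control TTGT. Most of its FOG-3 reads came from TGGC, the deepest library, which was also the highest after scaling at 111.1 CPM against 43.9 to 78.4 in the others. The means were 71.0 ± 30.7 CPM (SD, n = 4) in FOG-3 libraries and 4.66 ± 9.32 without the antibody. The pooled ratio with TMM was 7.38 (95% counting interval 1.27 to 297), and from totals 17.0 (2.93 to 685). It rested on single libraries: without TGGC it was 5.31 with TMM and a lower limit of 0.861. Without TTGT the bound, with 3 reads as the floor, was 1.65-fold (lower limit 1.29). In the fit without a filter the log2 fold change stood at 3.23 ± 0.97 (SE, edgeR adjusted p = 0.014), and with a minimum of 5 reads 3.37 ± 0.97 (adjusted p = 0.0045).

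The 4 B-type cyclins had a summed share of 0.0686% ± 0.0015 (SD, n = 4) of the reads assigned to genes after purification of FOG-3, from 0.0671% to 0.0701%. For single genes on the TMM scale, the highest FOG-3 library exceeded the lowest 2.00-fold for cyb-1, 2.57-fold for cyb-2.1, 2.06-fold for cyb-2.2 and 2.53-fold for cyb-3. The controls held 2 reads of the 4 genes together.

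The E-type cyclin cye-1 (WBGene00000871) had 26, 39, 37 and 64 reads in the FOG-3 libraries. It was also the gene with the most control reads, with 1 in CCGG and 2 in TTGT. The groups did not overlap: CGGA, lowest of the FOG-3 group, had 219.1 CPM and the highest control, CCGG, had 88.1 from its single read. The means were 245.7 ± 31.3 CPM (SD, n = 4) in FOG-3 libraries and 31.4 ± 41.7 CPM in the control group. The fitted log2 fold change came to 2.88 ± 0.65 (SE, edgeR adjusted p = 2.4e-05, higher in 4 of 4 libraries), with adjusted p from 3.5e-15 to 0.00039 over the alternatives. Without the control TTGT it was 3.84. The pooled ratio was 7.56 (95% counting interval 2.54 to 37.0) with TMM and 17.5 (5.87 to 85.5) from totals. In the WBcel235 RefSeq gene table, whose build need not be that of the counts, a tRNA gene overlaps cye-1. Its part in the counts was not tested.

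Of the kinases, wee-1.3 (WBGene00006940) had the most reads and the smallest p. It had 52, 69, 55 and 92 reads in the FOG-3 libraries, and 2 in controls, both in AATA. The scaled FOG-3 levels were 438.1, 432.4, 431.2 and 329.8 CPM, so TGGC stood below the other FOG-3 libraries, and each was above the 101.4 CPM of AATA. The means were 407.9 ± 52.2 CPM (SD, n = 4) in FOG-3 libraries and 25.35 ± 50.7 CPM without the antibody. The fitted log2 fold change came to 4.14 ± 0.64 (SE, edgeR adjusted p = 8.9e-10, higher in 4 of 4 libraries), with adjusted p from 1.3e-21 to 4.8e-06 over the alternatives. It was larger than that of 88.3% of the tested gene IDs, against 86.8% for cyb-1 and 75.1% for cye-1. The pooled ratio was 18.3 (95% counting interval 5.02 to 152) with TMM and 42.3 (11.6 to 350.9) from totals. Without AATA no control read remained, and the pooled TMM level was 11.6-fold higher over a floor of 3 reads (lower 95% counting limit 9.36). The counting interval of wee-1.3 overlapped those of cyb-1 and cye-1, and the differences between the 3 folds were not tested.

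The target of that kinase, cdk-1 (WBGene00000405), had few reads: 5, 4, 1 and 13 in the FOG-3 libraries, and none (0) in controls. Its FOG-3 level was 30.4 ± 17.7 CPM (SD, n = 4), with GGTT at 7.84 and TGGC at 46.6. A count of 0 over the 4 controls allows up to 3 reads, or 32.1 CPM with TMM and 21.6 CPM from totals. With 3 control reads as the floor, its pooled level from library totals was 2.42-fold higher. With TMM no fold is given, since its mean level lay under the 32.1 CPM. It did not pass in the fit without a filter (edgeR adjusted p = 0.076) and rose with a minimum of 5 reads (adjusted p = 0.023). The lower limit of the 95% counting interval of its ratio was 0.786 with TMM, which is under 1, and 1.81 from totals. Both fits used TMM, so with that scaling the outcome depended on the filter and on the measure.

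The aurora A kinase air-1 (WBGene00000098) had 8, 18, 9 and 26 reads in the FOG-3 libraries, and 1 read in controls, in AATA. The groups were close without overlap, with 67.4 CPM in CGGA, the lowest FOG-3 library, and 50.7 in AATA. The means were 86.0 ± 21.2 CPM (SD, n = 4) and 12.7 ± 25.35 CPM. The pooled ratio was 8.34 (95% counting interval 1.44 to 335) with TMM and 19.2 (3.33 to 772) from totals. Without TTGT the TMM ratio was 5.58 with a lower limit of 0.965. Without AATA the bound, with 3 reads as the floor, was 2.64-fold (lower limit 2.08). Fitted without a filter, its log2 fold change reached 3.44 ± 0.94 (SE, edgeR adjusted p = 0.0051), and with a minimum of 5 reads 3.58 ± 0.95 (adjusted p = 0.0017). In the same RefSeq list, air-1 overlaps 2 snoRNA genes, and their part in the counts was not tested.

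For plk-1 (WBGene00004042) and the aurora B kinase air-2 (WBGene00000099) no difference was detectable at this depth. In the FOG-3 libraries, plk-1 had 1, 2, 0 and 8 reads and air-2 had 2, 2, 1 and 7, and neither had a read in controls. TGGC, the deepest library, gave most of the reads of each. Their FOG-3 levels were 12.4 ± 12.03 and 15.6 ± 7.3 CPM (SD, n = 4), below the 32.1 CPM that a count of 0 over the controls allows with TMM. The lower 95% limits of their pooled ratios were under 1, at 0.343 and 0.380 with TMM and 0.792 and 0.877 from totals. In the controls 1.504 reads of plk-1 and 1.64 of air-2 would have been expected at the FOG-3 level with TMM. In the fit without a filter the edgeR adjusted p was 0.36 for plk-1 and 0.32 for air-2, and with a minimum of 5 reads it was 0.14 and 0.12.

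The share of each gene in the reads of the 10 varied between FOG-3 libraries to different degrees. Among the reads of the 10 genes, wee-1.3 took 33.0% ± 4.0 (SD, n = 4), cye-1 19.9% ± 2.8 and cyb-1 14.2% ± 4.0. These percentages are read numbers, not levels per length, so they do not rank the mRNAs. Between libraries cyb-1 went from 8.78% in CGGA to 17.3% in GGCA, cyb-2.1 from 5.45% in GGCA to 14.2% in CGGA, and cyb-3 from 3.47% in GGCA to 9.12% in TGGC. The spread of reads over the 4 FOG-3 libraries, as chi-square per degree of freedom against TMM-scaled library size, was lowest for cye-1 at 0.55, air-2 at 0.61 and air-1 at 0.73. It was 1.46 for cyb-2.2, 1.51 for cdk-1, 1.52 for wee-1.3, 1.79 for plk-1 and 1.91 for cyb-1, and highest for cyb-3 at 2.46 and cyb-2.1 at 3.42. Counting error alone gives about 1 as a mean, and its median is lower. The median over tested gene IDs was 1.26 (quartiles 0.58 and 2.36). Of the 10, only cyb-1, cye-1 and wee-1.3 were among those tested, and the others had fewer reads. With TMM, cye-1 lay below the lower quartile and cyb-3 and cyb-2.1 above the upper one. The order depended on the scaling: against library totals the values were 1.20 for cye-1, 2.15 for cyb-3, 2.48 for wee-1.3 and 2.78 for cyb-2.1.

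**Figure D4:**
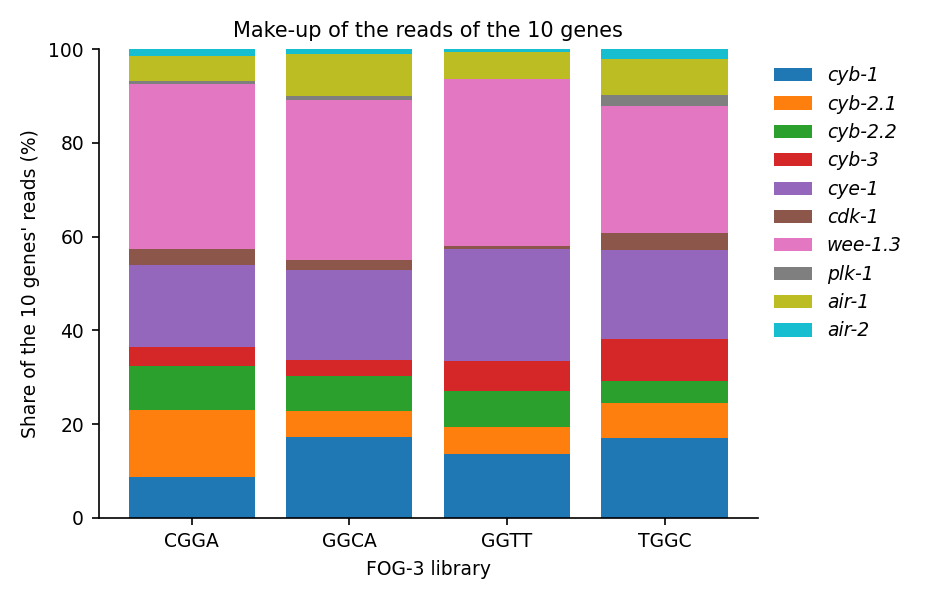
Share of each gene, in percent, among the reads of the 10 genes in each of the 4 FOG-3 libraries. The wee-1.3 segment takes 27.1% to 35.5% of each bar, and the cyb-2.1 segment is largest in CGGA at 14.2%.

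The size of the fold changes of the 3 tested genes moved with the scaling. Each was called higher in all 21 alternatives, 1 of which is the same fit with a stricter threshold. As their passing the filter rested on the FOG-3 libraries, this does not count as support. With library totals alone, 67.3% of tested gene IDs were called higher, and the median fold of the 3 was 4.99 on the log2 scale beside 1.94 for all. Scaled on the most abundant gene ID, 79.7% were called higher, and these medians were 5.62 and 2.68. With limma-voom they were 2.31 and 0.68.

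**Figure D5:**
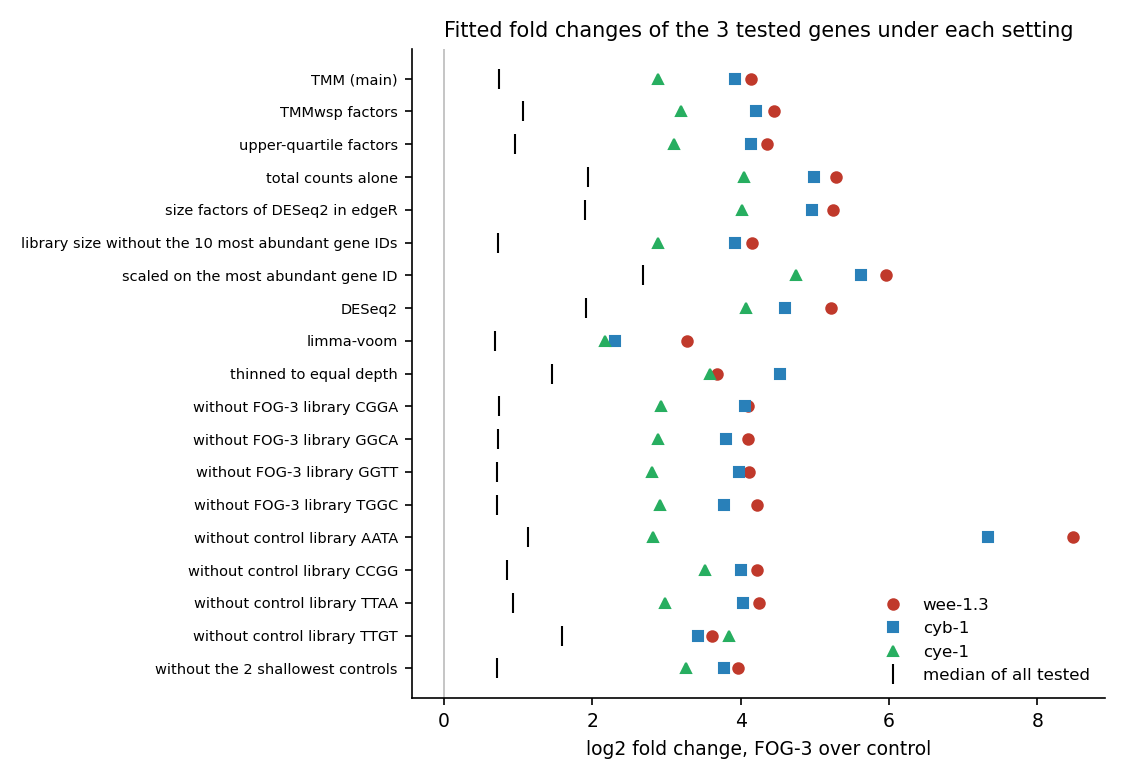
Fitted log2 fold change (FOG-3 over control) of wee-1.3, cyb-1 and cye-1 under each scaling, test and left-out library that tested the same 886 gene IDs, with the median of all tested gene IDs as a vertical tick. All points of the 3 genes lie to the right of the tick of their setting. The values of 7.33 and 8.48 without control AATA come from genes left with no control read and depend on the prior count.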

How the data were processed

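Raw counts of reads per gene ID for the 8 iCLIP libraries were used as the authors deposited them, in 1 table. The submitters' processing notes name STAR 2.4.2 and HTSeq. No source used here states the build, annotation, strand setting, treatment of multi-mapping reads or removal of PCR copies, so intervals cover counting error only. The 2 rows that name no gene, reads outside genes and ambiguous reads, stayed out of library sizes and tests. Reads outside genes made up 9.73% to 12.4% of a FOG-3 library and 2.41% to 5.54% of a control. For ambiguous reads these ranges were 0.573% to 0.696% and 0.311% to 0.478%.

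The test was edgeR's quasi-likelihood F test (edgeR 4.0.16, R 4.3.3) with group alone in the model, TMM scaling and the default filter (minimum count 10 and minimum total 15), with p adjusted over all gene IDs tested. Standard errors are the log2 fold change over the square root of F. The fit was tested on simulated data. Pooled ratios have exact conditional 95% counting intervals. Where the controls had 0 reads, 3 were set, and the fold called a bound leaves out counting error of the FOG-3 reads. Alternatives used DESeq2 1.42.0, limma 3.58.1, other scalings, filters, thinning and left-out libraries. P-values reflect only the variation among the libraries at hand.

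The members and lists were chosen with earlier results of these data known. All 10 members are named, as the rule for named genes set, and no other gene ID. A list of 45 further cell cycle symbols was not analysed, because 0 of 46926 reference genes carry the table's IDs. The 10 members were matched to the reference genes by symbol alone, for the overlaps, and no coordinates are given.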

Additional observations from a re-analysis of the deposited data

Results flagged for a closer look

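In 17 groups of 4 values, 5 had a library that stood apart by Dixon's test. The usual rate by chance, about 1 in 20, does not apply to 4 of these 5, which are controls with 3 of 4 libraries at 0. The scaled level of wee-1.3 in FOG-3 library TGGC, 329.8 CPM, stood below 431.2 to 438.1 CPM in the other FOG-3 libraries, with a gap of 0.936 of the range. From library totals TGGC was again lowest, at 492.7 against 645.7 to 716.2 CPM, and the gap was 0.685 of the range, which is under the critical value. In the controls of cyb-1, cyb-3, air-1 and wee-1.3 the gap was 1 of the range, as it must be where 3 of 4 libraries are at 0. The library with reads was TTGT for cyb-3, with 1 read, and AATA for the other 3, with 1, 1 and 2 reads.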

How the results depend on the processing

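The number of the 10 genes called higher was 3 in the main fit and in all alternatives that tested the same 886 gene IDs, 7 without a filter on low counts and 8 with a minimum of 5 reads, where more of the 10 were tested. No gene was called lower in any fit. Leaving out each library in turn gave log2 fold changes of 3.42 to 7.33 for cyb-1, 2.80 to 3.84 for cye-1 and 3.61 to 8.48 for wee-1.3, all called, with the highest values of cyb-1 and wee-1.3 without control AATA and that of cye-1 without control TTGT. The log2 bound of cyb-2.1 was 1.59, 1.05 after thinning to equal depth and 1.01 to 1.71 with each library left out. That of cyb-2.2 was 1.38, and 0.80 to 1.66 with each library left out. The lowest value of each came without TTGT, where fewer control reads set the floor. With each library left out, the log2 pooled ratio of cyb-3 ran from 0.72 (a bound, without TTGT) to 3.07 and that of air-1 from 1.40 (a bound, without AATA) to 3.16. Under the other scalings they reached 4.86 and 5.03, scaled on the most abundant gene ID. After thinning, cyb-3 had only a log2 bound of 1.05, and cdk-1 and air-1 had too few reads for a fold. For cdk-1 the log2 bound of 0.07 with TMM also fell under 0 without the FOG-3 library CGGA or TGGC, without the control AATA or TTGT, or without the 2 shallowest controls, the last an alternative chosen after seeing the data. For plk-1 and air-2 the bound as a fold, not on the log2 scale, was under 1 with TMM, at 0.501 and 0.547. The difference in summed share was 0.188 percentage points, 0.310 without the 10 most abundant gene IDs in the totals, and 0.184 to 0.192 with each library left out. Counts over all gene IDs were 401 higher and 244 lower with TMM, 596 and 84 with totals, 562 and 87 with DESeq2, 706 and 6 scaled on the most abundant gene ID, 400 and 97 after thinning, 457 and 114 without TTGT, 948 and 132 without a filter, and 1385 and 115 with a minimum of 5 reads. Where the gene IDs tested stayed the same, the cause was not tested. No paired analysis was possible because the columns carry no replicate numbers. Depth limits the controls most: 3 reads were worth 55.9 to 338 CPM per control on the TMM scale.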
